A study of Mus musculus with 4 samples.

Results

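The genes described here are 7 parts of the Fas death receptor pathway: the ligands Fasl and Tnfsf10, the receptor Fas, the adaptor Fadd, the initiator caspase Casp8, its inhibitor Cflar and the kinase Ripk1. They were chosen by symbol, and all 7 were found among 39179 counted Ensembl identifiers, of which 37607 had a symbol. They were compared between mouse T follicular helper (Tfh) cells, the helpers of germinal centre B cells, and activated CD4 T cells of the same antigen specificity that had not become Tfh cells. Both groups were OT-II cells, whose transgenic receptor recognises ovalbumin, given to C57BL/6 hosts that then received nitrophenol-coupled ovalbumin under the skin. On day 8, Thy-1.1+ CD44hi cells of pooled inguinal nodes were sorted as CXCR5+ PD-1+ Tfh or CXCR5- PD-1- non-Tfh cells. The labels give neither the age nor the number of the mice, so each library stands for a pool whose size is not stated, and no group lacks the transgenic receptor.

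Each group had 2 libraries, T32 and T53, made from total RNA with a stranded kit and read as pairs of 75 nucleotides. Total gene counts ran from 5725358 to 13360563, so that a single count corresponded to between 0.0748 and 0.175 CPM, the count scaled to the library's total. The labels do not tie the libraries to separate mice or pools, and the p-values cover only the spread among these samples, which may be technical. The CD4 T cell list of 11 markers summed to 9438 and 10641 CPM in Tfh libraries and to 8713 and 9386 in non-Tfh libraries. Cd8a had 2 counts in all, both in non-Tfh T32. Levels below are TMM-scaled CPM, and tests are edgeR's quasi-likelihood test with Benjamini-Hochberg adjustment over 11702 genes.

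Fas is a death receptor of the tumour necrosis factor receptor family. When Fas ligand binds it, the adaptor FADD joins the receptor and caspase-8 through shared death-fold domains, and caspase-8 activates itself and then the executioner caspases. c-FLIP, the product of Cflar, resembles caspase-8 without its catalytic activity and limits this step, and RIPK1 links the same complexes to NF-kappaB signalling or to necroptosis. In T cells the pathway is known for the death of repeatedly stimulated cells and for peripheral tolerance, and Fas is also a well-known surface marker of germinal centre B cells.

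Tfh cells held more Fas mRNA and less Cflar mRNA than non-Tfh cells. Fas rose 1.89-fold, from 23.6 CPM ± 5.79 to 44.8 ± 0.224 (mean ± SD, n = 2 per group). Cflar fell 1.67-fold, from 231 CPM ± 32.2 to 138 ± 0.471. All 7 passed the filter on low counts and were tested. The other 5 genes did not pass the test, among them Fasl, whose fitted level was 4.08-fold lower in Tfh cells with a wide spread. In all, 2 of 7 genes passed, 1 higher and 1 lower, where 8.49% of all genes tested passed (4.47% higher and 4.02% lower). The levels of the 2 groups did not overlap for any of the 7 genes, but neither did they for 52.2% of all genes tested, as 2 libraries against 2 often separate. The median log2 fold change of the 7 was -0.21, against -0.0053 over all genes tested.

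**Figure D1:**
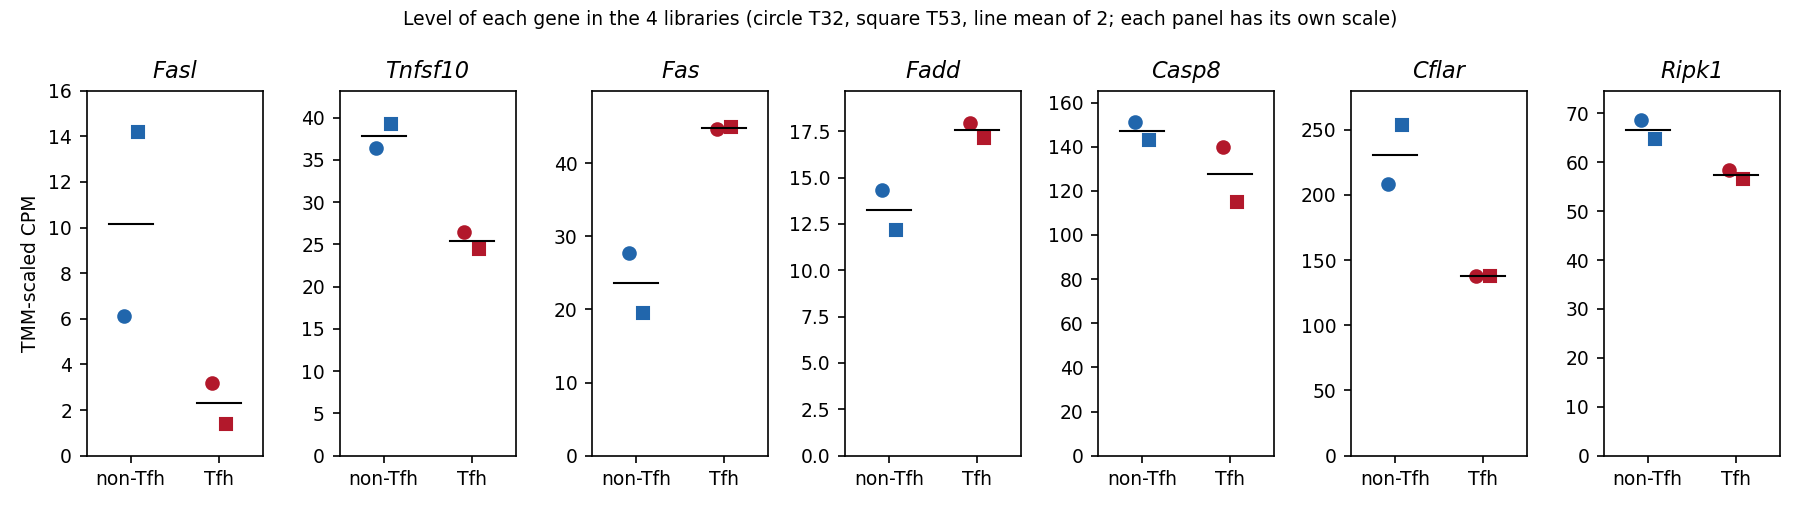
Level of each gene in TMM-scaled CPM (vertical axes from 0, each gene on its own scale) in the 2 non-Tfh libraries (blue) and the 2 Tfh libraries (red), with circles for T32, squares for T53 and a line at the mean of each group. The Tfh points of Fas lie together at 44.6 and 44.9 above both non-Tfh points, those of Cflar lie together at 137 and 138 below them, and the non-Tfh points of Fasl lie far apart.

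The stretches in front of 3 genes are shown because Fas and Cflar passed the test in opposite directions and Fasl had the largest fitted difference. All 7 genes had an entry in the RefSeq promoter table (GRCm38.p6), Ripk1 with 2 starts. Each line gives the 250 bases before the annotated start, 5′ to 3′ on the gene's strand, with matches to the motifs searched in capitals.
Fas, chr19:34290409-34290658, + strand: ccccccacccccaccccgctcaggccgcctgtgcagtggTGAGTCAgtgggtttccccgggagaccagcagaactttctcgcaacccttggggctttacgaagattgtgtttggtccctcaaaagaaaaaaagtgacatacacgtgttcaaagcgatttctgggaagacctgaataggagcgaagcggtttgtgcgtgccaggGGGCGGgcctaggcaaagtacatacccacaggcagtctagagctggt
Fasl, chr1:161788496-161788745, - strand: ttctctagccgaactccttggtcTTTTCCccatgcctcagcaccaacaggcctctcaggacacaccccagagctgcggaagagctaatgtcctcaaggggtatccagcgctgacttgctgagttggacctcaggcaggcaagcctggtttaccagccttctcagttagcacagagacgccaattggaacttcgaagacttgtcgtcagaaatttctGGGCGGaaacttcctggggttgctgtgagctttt
Cflar, chr1:58711241-58711490, + strand: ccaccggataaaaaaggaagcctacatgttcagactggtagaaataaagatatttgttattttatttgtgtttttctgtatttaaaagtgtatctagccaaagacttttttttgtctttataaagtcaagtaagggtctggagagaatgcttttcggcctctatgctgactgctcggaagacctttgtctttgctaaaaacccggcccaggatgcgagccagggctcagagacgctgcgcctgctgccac
Both strands were searched for AP-1 (TGACTCA), NF-kappaB (GGGA and TTCC with 2 bases between), NFAT (GGAAAA), interferon response (GAAA and GAAA with 2 bases between), forkhead (TGTTTAC) and GC box (GGGCGG) letters. Fas held an AP-1 match from 211 to 205 bases before the start, read there as TGAGTCA on the gene's strand, and a GC box from 47 to 42. AP-1 letters occurred in 4.46% of the 32851 promoter windows in the table and GC boxes in 32.7%. Fasl held NFAT letters from 227 to 222 bases before its start, read there as TTTTCC, and a GC box from 34 to 29, where 20.4% of all windows hold the NFAT letters. The Cflar window held none of the 6, and neither did those of Casp8 and Tnfsf10, while those of Fadd and Ripk1 held GC boxes alone. The Casp8 window, 58802252 to 58802501 on chromosome 1, lies inside the span given for the gene below, which begins at 58795374. It thus precedes a RefSeq start within that span, and the bases before the span itself were not searched. The NF-kappaB (1.21% of all windows), interferon response (2.98%) and forkhead (3.17%) letters occurred in none of the windows of the 7 genes. None of the matches overlapped another, and a match is a description of letters, not a bound site.

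Fasl, which encodes the ligand that triggers Fas (ENSMUSG00000000817, GRCm38 chromosome 1, 161780689 to 161788495), had the lowest mean CPM of the 7 in each group, although in non-Tfh T53 it was above Fadd. The Tfh libraries held 38 (T32) and 8 (T53) counts of it, and the non-Tfh libraries 82 (T32) and 126 (T53). Scaled, these were 3.19 CPM (exact Poisson 95% interval 2.26 to 4.38), 1.40 (0.604 to 2.76), 6.11 (4.86 to 7.59) and 14.2 (11.8 to 16.9), intervals that cover counting error only. Both Tfh libraries were below both non-Tfh libraries, and non-Tfh T53 was more than double non-Tfh T32, which is more than counting error gives. The log2 fold change was -2.03 ± 0.542 (SE) and did not pass (adjusted p = 0.0808). It passed with DESeq2 (-2.10, adjusted p = 0.0108), without a count filter (1.17e-07) and without non-Tfh T32 (-2.51, adjusted p = 0.0177), and over all 12 alternatives its adjusted p ran from 1.17e-07 to 0.271. Without non-Tfh T53 the log2 fold change was -1.32.

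Fasl is also a gene of cytotoxic lymphocytes, so markers of natural killer (NK) cells were read beside it. Ncr1, Klra8 and Klra4, which encode receptors of NK cells, had no counts in any library. The 7 NK markers summed to 50.8 and 58.8 CPM in Tfh and to 26.6 and 35.8 in non-Tfh libraries. Klrb1c, which encodes the NK1.1 antigen, made up most of the sum in the Tfh libraries, at 44.6 and 57.4 CPM against 19.8 and 12.4, and rose (log2 fold change 1.64 ± 0.252, adjusted p = 0.0154). Without it the other 6 summed to 6.21 (T32) and 1.40 (T53) CPM in Tfh and to 6.86 (T32) and 23.4 (T53) in non-Tfh libraries. Gzma made up most of each of these sums, and it was higher in Tfh T32 than in non-Tfh T32. The gap between the groups in these sums thus rests largely on non-Tfh T53. Eomes, a transcription factor of NK and cytotoxic T cells, had 2 counts in each Tfh library against 27 and 13 in non-Tfh libraries. It passed the count filter only through the non-Tfh group, so its counts are given without a test. As for Fasl, both Tfh libraries were below both non-Tfh libraries. Within the non-Tfh group the order was the reverse of that of Fasl, with Eomes at 2.01 CPM in T32 and 1.46 in T53. Gzma, a granzyme, was at 20.9 CPM in non-Tfh T53, where Fasl was highest, and at 4.10 in T32 of that group, against 5.62 (T32) and 0.874 (T53) in the Tfh group. The part of cells that express these markers in the Fasl level was not tested. In bulk samples such as these, fewer cells of a type and less RNA per cell cannot be told apart.

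Tnfsf10, which encodes TRAIL, a ligand of a related death receptor (ENSMUSG00000039304, chromosome 3, 27317028 to 27342427), measured 26.4 CPM (T32) and 24.5 (T53) in the Tfh group and 36.4 (T32) and 39.3 (T53) in the non-Tfh group. Both non-Tfh libraries were higher by more than the gap within either group. The log2 fold change of -0.57 ± 0.138 missed the threshold (adjusted p = 0.0577). It passed under 2 of the 12 alternatives, over which the adjusted p ran from 0.0133 (without a count filter) to 0.335. Tnfrsf10b, a mouse receptor for TRAIL, measured 2.94 and 3.67 CPM in Tfh against 5.07 and 6.87 in non-Tfh libraries, with no pass (log2 fold change -0.86, adjusted p = 0.18). The receptor genes Tnfrsf22 and Tnfrsf23 had log2 fold changes of -0.32 and 0.20, also with no pass (adjusted p = 0.558 and 0.783).

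Fas itself (ENSMUSG00000024778, chromosome 19, 34290666 to 34327772) measured 44.6 CPM (T32) and 44.9 (T53) in the Tfh group and 27.7 (T32) and 19.5 (T53) in the non-Tfh group. The Tfh libraries were nearly equal, and the difference between groups was larger than the gap between the non-Tfh libraries. The log2 fold change was 0.92 ± 0.19 (adjusted p = 0.0362). The call was lost without Tfh T32 (adjusted p = 0.0936) or Tfh T53 (0.099), each with a log2 fold change of 0.93, and without a non-Tfh library the change was 0.69 or 1.20.

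Since germinal centre B cells express Fas, their markers were read in the same libraries. Ms4a1, which encodes the B cell surface protein CD20, had 8 counts in non-Tfh T53 and 1 in Tfh T32, and none in the other libraries. Gcsam and Fcrla were at 0 throughout. The 7 B cell markers summed to 5.62 and 6.82 CPM in Tfh and to 2.24 and 4.50 in non-Tfh libraries. Pax5, a B cell transcription factor, made up most of the Tfh sums, at 61 (T32) and 30 (T53) counts, or 5.12 and 5.25 CPM, against 0 (T32) and 4 (T53) counts in the non-Tfh group. It too is given without a test, since it passed the count filter only through the Tfh group. Without Pax5 the other 6 B cell markers summed to 0.503 and 1.57 CPM in Tfh and to 2.24 and 4.05 in non-Tfh libraries, with at most 20 counts of any of them in a library. Pax5 was thus higher where Fas was higher, and the sum of the others lower, and the part of B cells in the Fas level was not tested. The 4 matched germinal centre B cell markers of 5 summed to 1.17 and 3.15 CPM against 3.80 and 3.26. The macrophage list of 6 markers summed to 4.87 and 4.72 against 2.46 and 6.19, the dendritic cell list of 7 to 2.60 and 3.15 against 3.28 and 6.75, and the pair of CD8 markers to 6.21 and 3.85 against 4.33 and 3.60.

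Fadd, the adaptor between receptor and caspase (ENSMUSG00000031077, chromosome 7, 144577318 to 144582463), measured 18.0 CPM (T32) and 17.1 (T53) in the Tfh group and 14.3 (T32) and 12.2 (T53) in the non-Tfh group. Both Tfh libraries were higher, but the log2 fold change of 0.40 ± 0.177 did not pass (adjusted p = 0.251), nor under any of the 12 alternatives. The antisense gene Faddos, which overlaps Fadd, had no counts.

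Casp8, the initiator caspase (ENSMUSG00000026029, chromosome 1, 58795374 to 58847503), measured 140 CPM (T32) and 115 (T53) in the Tfh group and 151 (T32) and 143 (T53) in the non-Tfh group. The gap within the Tfh group was larger than the gap from Tfh T32 to the non-Tfh libraries. The log2 fold change was -0.20 ± 0.134 (adjusted p = 0.455), and no alternative gave a pass.

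Cflar, the inhibitor c-FLIP (ENSMUSG00000026031, chromosome 1, 58711508 to 58758884), measured 137 CPM (T32) and 138 (T53) in the Tfh group and 208 (T32) and 254 (T53) in the non-Tfh group. As with Fas, the Tfh libraries were nearly equal and the non-Tfh libraries differed more. The log2 fold change was -0.74 ± 0.135 (adjusted p = 0.0241). The call was lost without Tfh T32 (adjusted p = 0.0872) or Tfh T53 (0.0994), at log2 fold changes of -0.74 and -0.73. Counts per gene do not separate the long and short forms of c-FLIP, which differ in how they act on caspase-8.

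**Figure D2:**
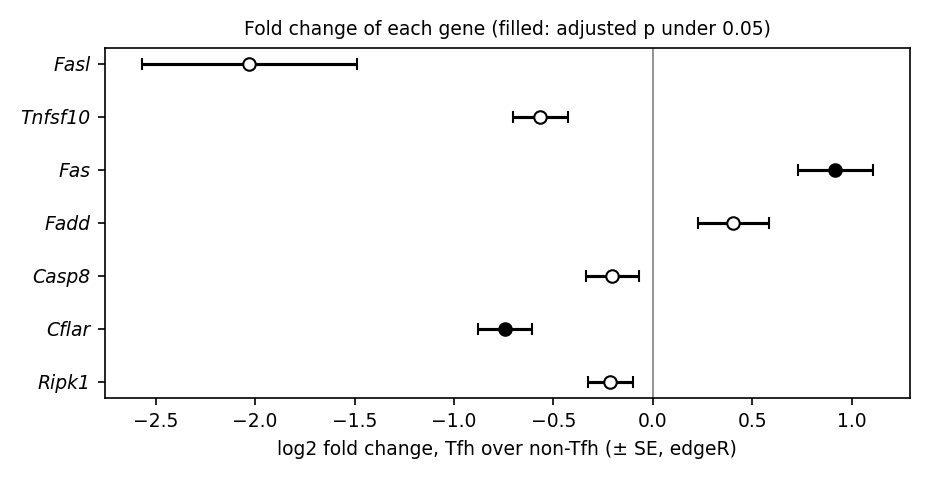
Log2 fold change of the 7 genes, Tfh over non-Tfh, on the horizontal axis, with bars of 1 standard error from edgeR and filled points where the adjusted p was under 0.05. Fas at 0.92 and Cflar at -0.74 are filled on opposite sides of 0, and Fasl at -2.03 has the widest bar.

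Cflar and Casp8 are neighbours in the genome on the same strand, with 36.5 kb between them and no other counted gene in the gap, and the balance of their counts was read in each library. Casp8 made up 50.5% of Casp8 plus Cflar counts in Tfh T32 (exact Clopper-Pearson 95% interval 48.7 to 52.2%) and 45.4% in Tfh T53 (42.9 to 48.0%). Its share was 42.1% (40.7 to 43.5%) in the non-Tfh T32 library and 36.1% in non-Tfh T53 (34.5 to 37.7%). Both Tfh shares were above both non-Tfh shares, although the interval of Tfh T53 overlapped that of non-Tfh T32. The group means were 47.9% ± 3.54 and 39.1% ± 4.26 (SD, n = 2 per group). On the log2 scale the ratio of Cflar to Casp8 counts was 0.52 lower in Tfh cells (Tfh minus non-Tfh -0.52, two-sided exact permutation p = 0.333, the smallest that 2 against 2 allows). Without non-Tfh T53 this difference was -0.34, and it does not depend on library scaling. In both groups T53 had the lower share of Casp8.

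**Figure D3:**
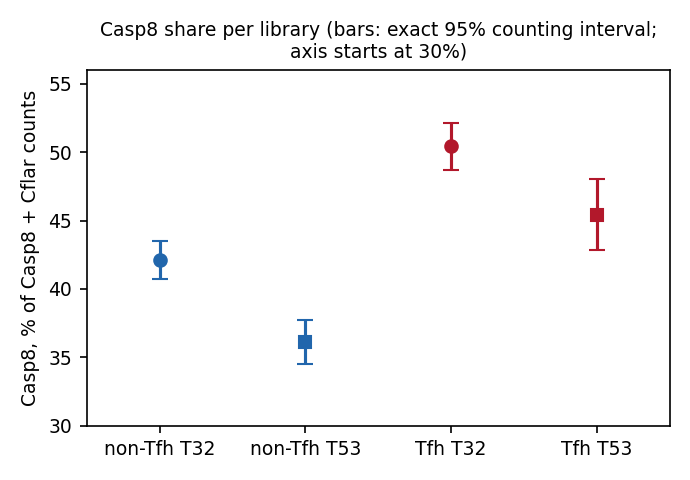
Casp8 counts as a percentage of Casp8 plus Cflar counts (vertical axis, from 30%) in each library, with non-Tfh in blue, Tfh in red and bars for the exact 95% counting interval. The Tfh libraries stand at 50.5 and 45.4% and the non-Tfh libraries at 42.1 and 36.1%.

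Ripk1, the kinase that joins these complexes (ENSMUSG00000021408, chromosome 13, 34002363 to 34037147), measured 58.4 CPM (T32) and 56.5 (T53) in the Tfh group and 68.5 (T32) and 64.7 (T53) in the non-Tfh group. Both Tfh libraries were lower by a small margin, with a log2 fold change of -0.21 ± 0.115 that did not pass (adjusted p = 0.353) here or under any of the 12 alternatives. Its span overlaps Serpinb6a on the other strand by 432 bases, and whether the counting used strand is not given in the sources used here. On the same strand it overlaps the processed pseudogene Gm17084 by 511 bases. Gm17084 had 25 (T32) and 13 (T53) counts in Tfh and 29 (T32) and 26 (T53) in non-Tfh libraries.

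Set per kilobase of merged exon, Casp8 was the most abundant of the 7 in both groups, at 44.1 CPM per kb ± 6.09 in Tfh and 50.9 ± 2.01 in non-Tfh cells. Below it, on this scale, the order of receptor and inhibitor differed between groups. In Tfh libraries Fas was next, at 21.6 and 21.8 CPM per kb, ahead of Cflar at 10.9 in both. In non-Tfh libraries Cflar was next, at 16.4 and 20.0, ahead of Fas at 13.4 and 9.44. Cflar has 12.7 kb of merged exon over all annotated transcripts, against 2.06 kb for Fas, so that its level per kb is understated wherever shorter forms prevail. Before division by length Cflar was above Fas in every library, at 137 and 138 CPM against 44.6 and 44.9 in Tfh. In non-Tfh libraries it was at 208 and 254 against 27.7 and 19.5. The change of order thus depends on the exon length used, and so, outside Tfh T32, does the place of Casp8 above Cflar.

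Ripk1 followed at 6.88 CPM per kb ± 0.161 in Tfh and 7.98 ± 0.323 in non-Tfh cells. Tnfsf10 stood at 4.83 ± 0.261 and 7.18 ± 0.388, Fadd at 4.50 ± 0.147 and 3.39 ± 0.392, and Fasl at 1.18 ± 0.653 and 5.24 ± 2.94. In Tfh cells Tnfsf10 and Fadd differed by less than their SDs together. In non-Tfh cells the libraries of Fasl, at 3.16 and 7.32, spanned levels of both Fadd and Tnfsf10, so its place there is not fixed. There were 14.0 and 32.1 counts of Fas for each count of Fasl in Tfh T32 and T53, against 4.52 and 1.37 in non-Tfh T32 and T53.

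The wider pathway was read through 6 lists with 77 genes, of which 71 were tested, and 6 rose and 1 fell. That is 9.86% of those tested, close to the 8.49% of all genes, and their median log2 fold change was -0.00042. Of these 7, 4 came from the list named modulators of Fas and Fas ligand, 2 were other death receptors and 1 a kinase of RIPK1. The lists were chosen with earlier results of these data known, and whether their genes act on Fas in these cells was not tested.

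**Figure D4:**
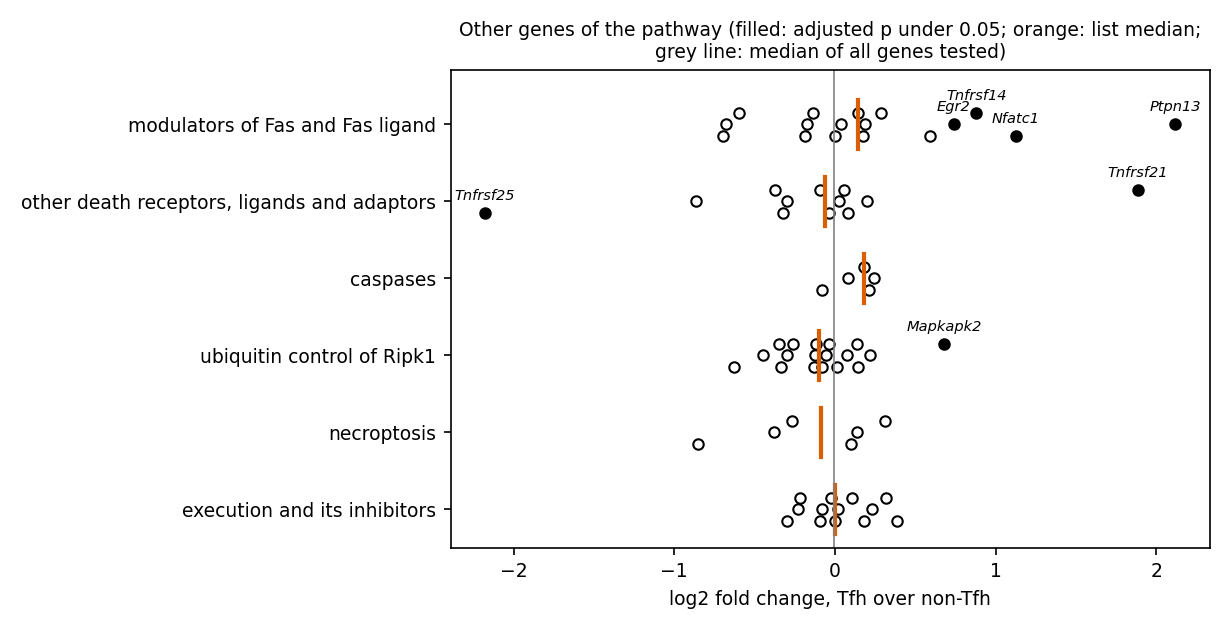
Log2 fold change, Tfh over non-Tfh (horizontal axis), of the tested genes of 6 pathway lists (rows, offset vertically for legibility), filled and named where the adjusted p was under 0.05, with list medians in orange and the median of all genes in grey. Ptpn13 at 2.12 and Tnfrsf25 at -2.18 lie farthest out, and no gene of the caspase, necroptosis and execution lists is filled.

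Over all genes tested, 4.47% rose and 4.02% fell. In the list of modulators of Fas and Fas ligand, 4 of 17 tested genes rose and none fell (median 0.14). Without a count filter 5 rose and 3 fell (Daxx, Pea15a and Egr3), and Daxx, a protein named for its binding to the Fas death domain, also passed as lower with DESeq2 and without Tfh T32, and Egr3 without non-Tfh T32. Ptpn13, the phosphatase FAP-1 that binds the tail of human Fas, measured 234 and 371 CPM in Tfh T32 and T53 against 58.3 and 81.3 in non-Tfh T32 and T53. It rose 4.34-fold (log2 fold change 2.12 ± 0.279, adjusted p = 0.0131) and kept an adjusted p under 0.05 under all 12 alternatives. Nfatc1, a calcium-regulated transcription factor, rose 2.18-fold, from 381 and 485 CPM to 850 and 1042 (adjusted p = 0.016), and Egr2, a transcription factor known to induce Fasl, rose 1.67-fold, from 46.0 and 48.1 CPM to 87.7 and 68.6 (adjusted p = 0.0349). Tnfrsf14, the receptor HVEM, which binds BTLA and has no death domain, rose 1.84-fold (adjusted p = 0.0156). Egr3, close kin of Egr2, measured 13.1 and 14.0 CPM in Tfh against 16.4 and 27.1 in non-Tfh libraries without a pass (adjusted p = 0.202). The call of Egr2 was lost without Tfh T32 (adjusted p = 0.154) or non-Tfh T32 (0.0776), and that of Tnfrsf14 without Tfh T53 (0.0572).

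Among other death receptors, ligands and adaptors, 1 of 12 tested genes rose and 1 fell (median -0.064), where 8.49% of all genes tested passed. Both genes that passed are death receptors. Tnfrsf25, the receptor DR3 for the cytokine TL1A, measured 11.5 and 10.1 CPM in Tfh T32 and T53 against 57.0 and 41.5 in non-Tfh T32 and T53. It fell 4.52-fold (log2 fold change -2.18 ± 0.205, adjusted p = 0.00279) and passed under all 12 alternatives. Tnfrsf21, the receptor DR6, rose 3.69-fold from a low level, 2.16 and 1.58 CPM, to 6.46 and 7.69 (log2 fold change 1.89 ± 0.327, adjusted p = 0.0204), and its call was lost without Tfh T53 (adjusted p = 0.0681). The ligand gene Tnf and the adaptors Tradd and Traf2 had log2 fold changes of -0.035, 0.028 and 0.059.

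Of the 5 tested caspases described here besides Casp8, none passed edgeR's test (median 0.18), none had an unadjusted p under 0.05, and DESeq2 and limma-voom also gave 0. Casp2, which acts after genotoxic stress, measured 90.01 and 86.2 CPM in Tfh T32 and T53 against 89.3 and 97.6 in non-Tfh T32 and T53 (adjusted p = 0.748). Casp4, an inflammatory caspase, measured 97.6 and 65.2 against 80.6 and 74.5 (adjusted p = 0.873). The groups overlap for both genes. Casp9, the apical caspase of the mitochondrial route, had a log2 fold change of 0.18, and the inflammatory caspase Casp1 had 0.24. Casp14 had no counts and Casp12 had 2, so they were not tested.

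Where 8.49% of all genes tested passed, 1 of 18 genes rose in the list for ubiquitin control of RIPK1 (median -0.10). This was Mapkapk2, the kinase MK2, which phosphorylates RIPK1, and it rose 1.60-fold from 108 and 105 CPM to 168 and 173 (log2 fold change 0.68 ± 0.108, adjusted p = 0.0155). Its call was lost without Tfh T32 (adjusted p = 0.0549) or Tfh T53 (0.0748). The ubiquitin ligases Birc2 and Birc3 had log2 fold changes of -0.35 (adjusted p = 0.138) and -0.30 (0.256), and the deubiquitinase Cyld had 0.13 (0.582). Nearer the threshold, without a pass, were Ikbkb at -0.63 (adjusted p = 0.0537) and Otulin at -0.45 (0.0955). Ikbkb passed as lower with DESeq2, without a count filter and with the replicate block, and Otulin with the replicate block.

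None of 6 necroptosis genes (median -0.085) and none of 13 tested execution genes (median 0.0030) passed edgeR's test, none had an unadjusted p under 0.05, and DESeq2 and limma-voom also gave 0 in both lists. Ripk3, the kinase of necroptosis, measured 36.3 and 30.6 CPM in Tfh against 34.7 and 27.9 in non-Tfh libraries, and the nucleic acid sensor Zbp1 measured 90.1 and 64.4 against 96.9 and 105. Mlkl, the effector of necroptosis, was scarce, at 1.85 and 1.40 against 4.18 and 1.69. Xiap, an inhibitor of caspases, measured 171 and 201 CPM against 174 and 193, groups that overlap, and Birc6, a giant member of the same family, measured 898 and 1028 against 1064 and 1307 (adjusted p = 0.364). A p that misses the threshold does not show that these levels are equal.

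The genes whose log2 level across the 4 libraries was nearest to that of Fas, out of 9521 with a mean of at least 5 CPM, were Pif1, a DNA helicase, Lgmn, the protease legumain, and Fam216a, at Euclidean distances of 0.0613, 0.099 and 0.112 after centring. Nearest to Fasl were Gm15708, a transcript annotated inside an intron, Il12rb2, a chain of the interleukin-12 receptor, and Arhgap29, a GTPase-activating protein, at distances of 0.57, 0.605 and 0.648. Il12rb2 measured 2.35 and 1.92 CPM in Tfh against 6.86 and 11.5 in non-Tfh libraries. These distances rest on 4 libraries and describe likeness of level alone.

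Whether a gene passed depended on the settings for some of the 7. Fas and Cflar passed under 10 of 12 alternatives, Fasl under 3, Tnfsf10 under 2, and Fadd, Casp8 and Ripk1 under none, and no alternative turned the direction of any of the 7.

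**Figure D5:**
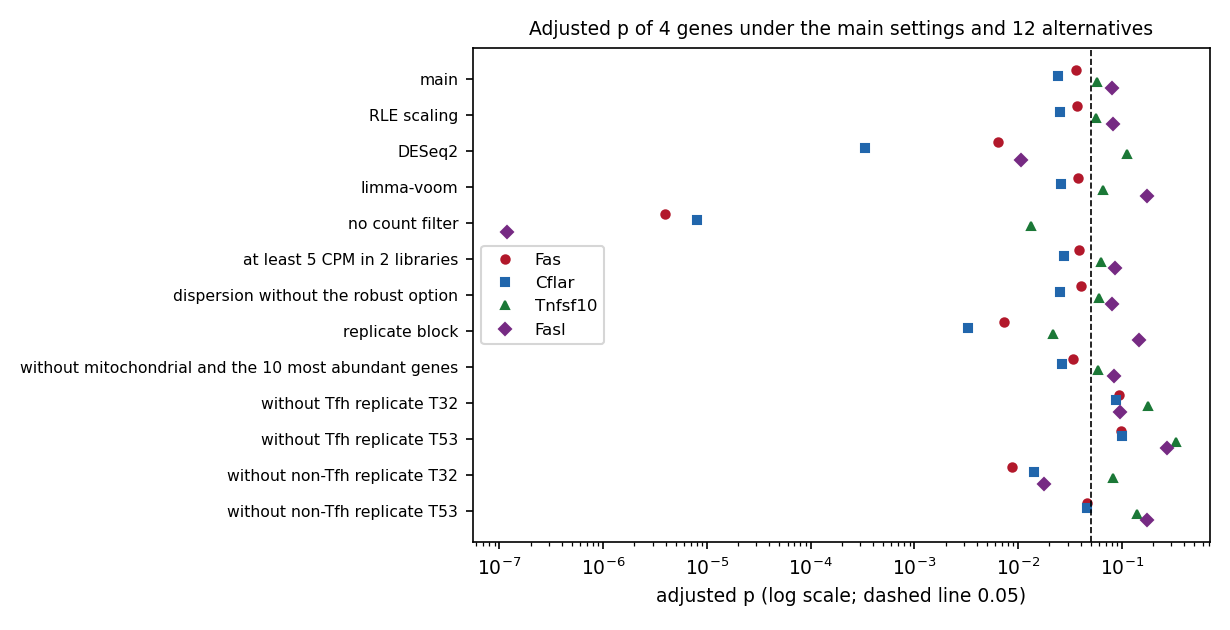
Adjusted p (horizontal log axis, dashed line at 0.05) of Fas, Cflar, Tnfsf10 and Fasl under the main settings and 12 alternatives (rows, genes offset vertically for legibility). Fas and Cflar lie left of the line except without a Tfh library, and Fasl crosses it with DESeq2, without a count filter and without non-Tfh T32.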

How the data were processed

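The authors deposited raw counts per Ensembl gene for each library, as whole numbers with no header. TopHat2, Bowtie2, HTSeq and the build GRCm38 (mm10) are listed in the submitters' processing notes; versions, annotation release and strand setting are not given in the sources used here. Symbols, positions and merged exon lengths came from GENCODE M21 (GRCm38); 1572 identifiers without a symbol held 0.209 to 0.228% of counts and stayed in library totals.

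Counts were tested in R 4.3.3 with edgeR 4.0.16: filterByExpr by group, TMM scaling, robust quasi-likelihood fit on group alone (2 residual degrees of freedom), two-sided, Benjamini-Hochberg at 0.05. The SE was derived from the log2 fold change and the F statistic. Poisson and binomial intervals were computed with scipy 1.17.1, and figures with matplotlib 3.10.9. Alternatives were RLE scaling, DESeq2 1.42.0, limma-voom (limma 3.58.1), no count filter, at least 5 CPM in 2 libraries, no robust option, a replicate block, removal of mitochondrial genes with the 10 most abundant, and leaving out each library.

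The genes, 6 pathway lists and 7 marker lists were chosen with earlier results of these data known. The naming rule took the 7 genes, up to 5 called genes of each pathway list (the 2 most abundant where none was called) and the 3 nearest profiles to Fas and to Fasl; any further gene was picked with its values in view. A few genes of the caspase and B cell lists are not reported here and were left out of every list count, median and sum. The fit was tested on simulated counts with the same dispersion for every gene. It recovered 8% of 1.5-fold, 62% of 2-fold and 100% of 4-fold changes (50 genes each), so small differences can be missed.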

Additional observations from a re-analysis of the deposited data

How the results depend on the processing

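Over 12 alternatives, 20 named genes gave 240 values, of which 5 changed sign, 10 lost a call and 5 gained one. The sign changes were of Ripk3, Xiap and Casp4, none called: with a library left out their log2 fold changes ran from -0.046 to 0.27, from -0.085 to 0.14 and from -0.25 to 0.35. The number of the 7 genes that passed ran from 0 to 3 with a library left out: 0 without either Tfh library, each time with 4 at an unadjusted p under 0.05. It was 4 without a count filter. All genes called numbered 994, and 545 (without Tfh T53) to 887 with a library left out, 1986 without a count filter and 2116 with a replicate block; the cause was not tested. In these fits a lone library is assumed to vary like the other group, with fewer samples. Among the pathway lists, the number called for modulators of Fas went from 4 to 7 with the replicate block (5 higher, 2 lower) and 8 without a count filter, and that for ubiquitin control of RIPK1 from 1 to 3 (1 higher, 2 lower) with the block, 2 with DESeq2, without a count filter or without non-Tfh T32, and 0 without either Tfh library. Under the replicate block Tnfsf10 passed (adjusted p = 0.0218). Deviations of same-numbered libraries correlated at 0.38 over 9521 genes, but the labels do not say what the numbers mark. Depth limits Fasl most, at 8 counts in Tfh T53.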

Other observations

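Among the pathway genes, chosen after its values were seen, Tnfaip3, which encodes the NF-kappaB feedback enzyme A20, differed by library number rather than by group. It measured 95.9 CPM in Tfh T32 and 98.4 in non-Tfh T32, against 177 in Tfh T53 and 228 in non-Tfh T53. Between groups its log2 fold change was -0.26 ± 0.497 (adjusted p = 0.828). The labels do not say what T32 and T53 mark, and the difference between the numbers was not tested.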
